A study of Homo sapiens with 6 samples.

Results

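Keratins are the intermediate filament proteins of epithelial cells, and 10 keratin genes were followed in MIA PaCa-2, an established human pancreatic ductal carcinoma cell line. The genes were chosen by symbol: KRT5, KRT7, KRT8, KRT10, KRT14, KRT17, KRT18, KRT19, KRT80 and KRT81. Of these, 9 had a row among the 35716 genes of the table, and 8 passed a filter on low counts that left 15202 genes for testing. KRT5 was not analysed here, and KRT14 fell below the filter.

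Poly(A)-selected mRNA was sequenced in 3 libraries of cells kept for 24 h with 10 nM triptolide and in 3 libraries of untreated cells, all of the wild-type cell line. Triptolide is a plant diterpenoid that binds a helicase subunit of the general transcription factor TFIIH. The series' design text uses the words control group for the treated cells, so the groups here follow each sample's treatment label. The labels name the pancreas as tissue beside the cell line. Whether the libraries of each group stem from separate cultures is not stated, so p-values here reflect library-to-library spread that may be only technical. Total counts ran between 16302961 and 23262713 per library, and every pair of libraries differed by more than sampling noise.

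A keratin filament is built from pairs in which an acidic type I chain joins a basic or neutral type II chain, so cells make members of both classes. Simple epithelia such as pancreatic ducts rely on the type II keratin KRT8 with the type I keratins KRT18 and KRT19, and ductal cells also use the type II keratin KRT7. KRT5 and KRT14 pair in basal cells of stratified epithelia, KRT10 marks their differentiating layers, KRT17 is known from skin appendages and injured epidermis, and KRT81 is a hair keratin. The 9 measured members were 5 type I genes (KRT10, KRT14, KRT17, KRT18 and KRT19) and 4 type II genes (KRT7, KRT8, KRT80 and KRT81). KRT18 and the type II genes lie on chromosome 12, and the other type I genes lie on chromosome 17.

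KRT8 and KRT81 have close copies elsewhere in the genome, which bears on how far their counts belong to one gene. KRT8 has processed copies, among them KRT8P12 on chromosome 3 and KRT8P14 on chromosome X, and the hair keratin KRT86 neighbours KRT81 on chromosome 12. Over the aligned coding sequence of the GENCODE 29 transcripts, KRT8P12 matched KRT8 at 90.6% of 1388 bases, KRT8P14 matched KRT8 at 92.2% of 1428 bases, and KRT86 matched KRT81 at 95% of 1393 bases. No window of 150 bases, the length of 1 read, was the same in KRT8 and another gene's transcript. Of the 1780 such windows in KRT81, 456 (25.62%) were also present in KRT86.

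In untreated cells KRT8 and KRT18 were among the most abundant transcripts. Levels of a gene are given as its share of each library (CPM, counts scaled to a fixed library size) on sizes adjusted by the trimmed mean of M-values (TMM), and ranks among genes are per kilobase of all annotated exons. KRT8 averaged 1894 ± 341 CPM (SD, n = 3 untreated libraries) and lay above 99.1% of the tested genes per kilobase. KRT18, with 869.9 ± 168 CPM, lay above 99.0% of them. KRT19, with 247 ± 65.2 CPM, lay above 97.2% of tested genes per kilobase. KRT80, a type II keratin of stratified epithelia, averaged 151 ± 3.51 CPM and lay above 90.9% of them.

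The other 4 tested members lay above 54.0% (KRT7) to 76.8% (KRT10) of the tested genes per kilobase in untreated cells. Their means were 26.4 ± 6.41 CPM for KRT10, 17.2 ± 0.966 CPM for KRT7, 16 ± 1.62 CPM for KRT17 and 14.6 ± 0.952 CPM for KRT81 (SD, n = 3 each). KRT14 was near the detection limit, with 1, 4 and 7 counts in the triptolide libraries and 3, 2 and 2 counts in the untreated libraries. The KRT14 groups overlapped, and in the edgeR fit with no low-count filter its adjusted p was 0.736.

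Levels of different genes were set side by side per kilobase of the principal transcript. On that scale untreated cells held 760, 842 and 1069.7 CPM per kilobase of KRT8 and 517, 576 and 745 CPM per kilobase of KRT18. KRT8 was the higher of the pair in each untreated library. KRT19 followed with 146, 156 and 232 CPM per kilobase, and KRT80 with 39.5, 39.7 and 38.0 CPM per kilobase. The values of KRT8, KRT18, KRT19 and KRT80 did not overlap with each other. Those of KRT10 (mean 12.4 CPM per kilobase), KRT7 (mean 9.8) and KRT17 (mean 9.69) overlapped in untreated cells, and KRT81 was lowest of the tested members (mean 7.58). The order depends on the length used: over all annotated exon bases, untreated KRT8 and KRT18 averaged 275 and 270.3 CPM per kilobase, and KRT81 (7.58) then stood above KRT17 (5.11) and KRT7 (4.2).

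**Figure D1:**
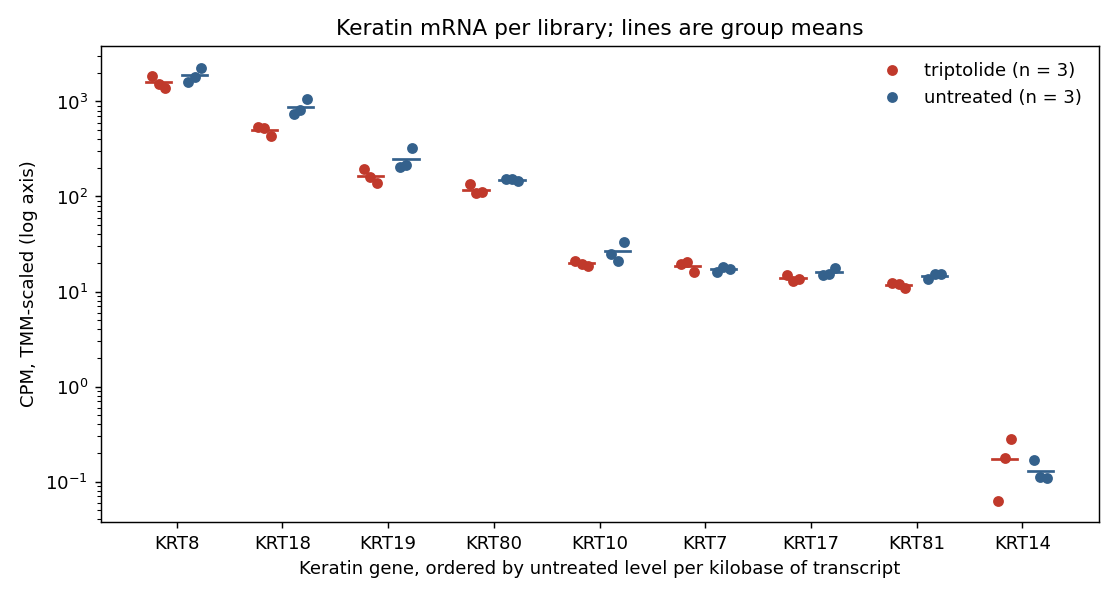
Level of the 9 measured keratins in each library, as CPM on a log axis, with triptolide libraries left of untreated libraries and horizontal bars at the group means. KRT8 and KRT18 stand highest in both groups, and KRT14 lies below 1 CPM in every library.

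With triptolide, KRT18 fell and KRT8 did not pass the test. Of the 8 tested members, 1 fell (KRT18), 0 rose and 7 were not called at an adjusted p under 0.05, by edgeR's quasi-likelihood test adjusted over all tested genes with the Benjamini-Hochberg method. Over all 15202 tested genes, 884 fell (5.82%) and 1527 rose (10.0%). At an unadjusted p under 0.05, 3 members were lower, with 13.8% of all tested genes, and 0 were higher, with 17.1%. DESeq2 called 2 members lower (7.39% of all tested genes) and 0 higher (9.9%). Limma-voom called 1 member lower (5.91%) and 0 higher (9.76%). The log2 fold change, triptolide over untreated, was negative for 7 of the 8 members. Its median was -0.338 over the 8 members and -0.004 over all tested genes. Triptolide libraries lay wholly below untreated libraries for 5 members and wholly above for 0, where 16.9% of tested genes lay wholly below and 19.8% wholly above. The number of genes that fell rested on single libraries, being 457 without triptolide replicate 3, 529 without untreated replicate 1 and 407 without untreated replicate 2. CPM is a share of each library, and in bulk samples fewer cells of a type and less RNA per cell cannot be told apart.

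KRT8 (ENSG00000170421), the type II partner that simple epithelial filaments require, had 1873, 1511 and 1378 CPM in triptolide libraries, against 1616, 1791 and 2274 CPM in untreated libraries. The groups overlapped, since triptolide replicate 1 stood above untreated replicates 1 and 2. The log2 fold change was -0.25 ± 0.19 (SE), with a 95% confidence interval of -0.67 to 0.16 and an adjusted p of 0.393 by edgeR's quasi-likelihood test. This interval does not show that KRT8 was equal in the groups.

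KRT18 (ENSG00000111057), the type I chain that pairs with KRT8, had 540.1, 532 and 438 CPM in triptolide libraries, against 734, 817 and 1058 CPM in untreated libraries. Every triptolide library lay below every untreated library. The level was 1.73-fold lower with triptolide, a log2 fold change of -0.79 ± 0.18 (SE; 95% confidence interval -1.19 to -0.39), with an adjusted p of 0.0123 by edgeR's quasi-likelihood test. The call was lost without triptolide replicate 3, where the log2 fold change was -0.70 and the edgeR adjusted p was 0.0627. It was also lost when libraries were scaled on 87 ribosomal protein genes, where the log2 fold change was -0.60 with an edgeR adjusted p of 0.0626. That scaling moved the median of all tested genes to 0.168, and KRT18 relative to that median was at -0.77.

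KRT19 (ENSG00000171345), a type I keratin of simple epithelia with a very short tail domain, had 194, 159 and 139 CPM in triptolide libraries, against 203, 217 and 322 CPM in untreated libraries. The groups did not overlap, with triptolide replicate 1 close to untreated replicate 1 and untreated replicate 3 far above the other untreated libraries. The log2 fold change was -0.60 ± 0.21 (SE; 95% confidence interval -1.04 to -0.15), with an adjusted p of 0.0691 by edgeR's quasi-likelihood test. KRT19 did pass by DESeq2 (adjusted p = 0.0373) and by edgeR without triptolide replicate 1 (log2 fold change -0.72, adjusted p = 0.0437).

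KRT80 (ENSG00000167767) had 135, 108 and 110.4 CPM in triptolide libraries, against 152, 153 and 147 CPM in untreated libraries. All triptolide libraries lay below the untreated ones, which were close together. The log2 fold change was -0.36 ± 0.16 (SE), with an adjusted p of 0.144 by edgeR's quasi-likelihood test. Without triptolide replicate 1 the log2 fold change was -0.45 and the edgeR adjusted p was 0.0383.

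The less abundant members stayed on the same side of the threshold in every fit that left out a library. KRT10 (ENSG00000186395) had 20.8, 19.7 and 18.7 CPM in triptolide libraries, against 24.9, 20.9 and 33.5 CPM in untreated libraries. The KRT10 groups did not overlap, and the spread was wider among untreated libraries (log2 fold change -0.42 ± 0.19 SE, edgeR adjusted p = 0.164). KRT81 (ENSG00000205426) had 12.4, 11.9 and 10.8 CPM with triptolide and 13.5, 15.1 and 15.2 CPM in untreated cells, again without overlap (log2 fold change -0.32 ± 0.17 SE, edgeR adjusted p = 0.227). KRT17 (ENSG00000128422) had 14.9, 13.0 and 13.7 CPM with triptolide and 14.8, 15.3 and 17.8 CPM in untreated cells, with overlap at triptolide replicate 1. Its log2 fold change was -0.21 ± 0.17 (SE; edgeR adjusted p = 0.442). KRT7 (ENSG00000135480) was the member with a positive log2 fold change, 0.12 ± 0.17 (SE; edgeR adjusted p = 0.665). It had 19.7, 20.3 and 16.2 CPM in triptolide libraries, against 16.2, 18.1 and 17.3 CPM in untreated libraries, so the groups overlapped.

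Untreated replicate 3 was the highest of its group for KRT8, KRT18, KRT19, KRT10, KRT17 and KRT81. It was the lowest of its group for KRT80. Without that library the log2 fold changes of KRT8, KRT18 and KRT19 kept their sign. Leaving out each library in turn gave log2 fold changes of -0.37 to -0.11 for KRT8, -0.91 to -0.64 for KRT18 and -0.73 to -0.37 for KRT19.

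**Figure D2:**
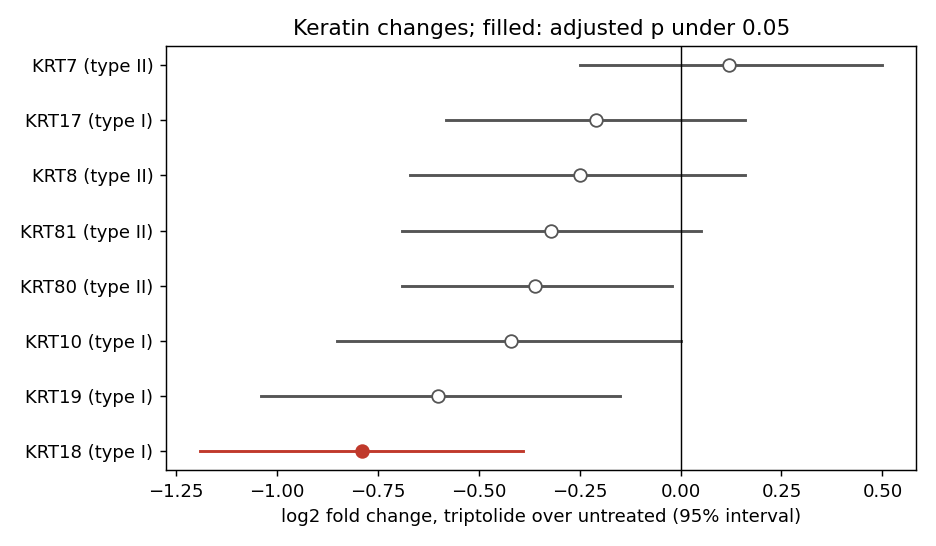
Log2 fold change of the 8 tested keratins, triptolide over untreated, with 95% confidence intervals from edgeR's quasi-likelihood fit. KRT18 at -0.79 is the called member, and KRT7 at 0.12 lies above 0.

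Summed over the 9 members, keratins took 0.274%, 0.241% and 0.229% of all counts in triptolide libraries, against 0.282%, 0.302% and 0.36% in untreated libraries. The type I members summed to 769.7, 723 and 609 CPM in triptolide libraries, against 978, 1070.2 and 1432 CPM in untreated libraries, without overlap. The type II members summed to 2040.1, 1651 and 1515 CPM in triptolide libraries, against 1798, 1977 and 2453 CPM in untreated libraries, with overlap. These sums are led by KRT18 and KRT8, and counts were not divided by length.

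KRT18 was therefore also set against KRT8 within each library, which removes the library's scaling; this ratio and that of KRT19 to KRT8 were chosen after the values were seen. There were 28.8, 35.2 and 31.8 KRT18 counts per 100 KRT8 counts in triptolide libraries, against 45.5, 45.6 and 46.5 in untreated libraries. The means were 31.9 ± 3.19 with triptolide and 45.9 ± 0.568 in untreated cells (SD, n = 3 each), a ratio 1.44-fold lower with triptolide. The groups did not overlap, and leaving out each library in turn gave log2 differences of -0.60 to -0.46 around the value of -0.53. KRT19 counts per 100 KRT8 counts were 10.3, 10.5 and 10.1 with triptolide and 12.6, 12.1 and 14.2 in untreated cells, again without overlap. KRT18 counts per 100 KRT19 counts were 279, 335 and 315 with triptolide and 361, 377 and 328 in untreated cells, and these overlapped. With 3 libraries against 3 an exact two-sided permutation test cannot go below p = 0.1, so these ratios stand as descriptions.

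**Figure D3:**
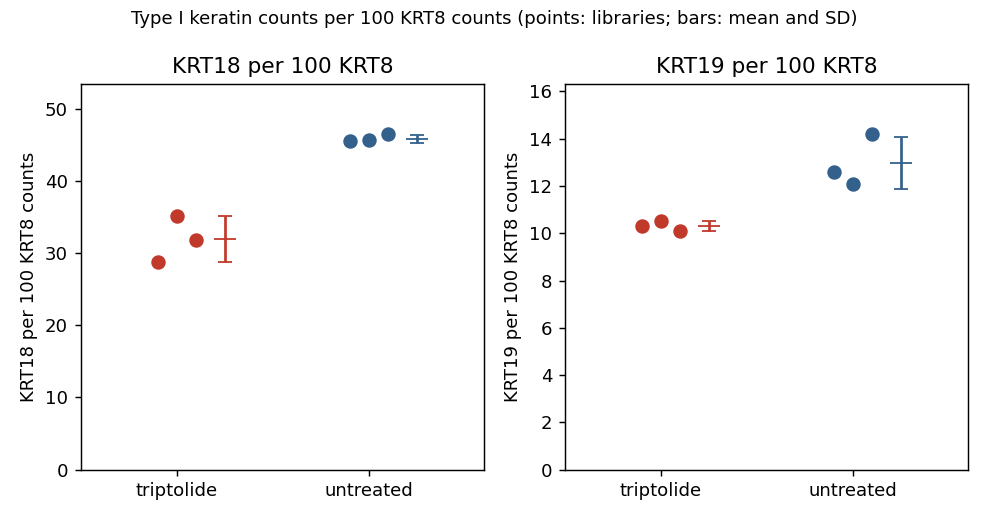
KRT18 counts per 100 KRT8 counts and KRT19 counts per 100 KRT8 counts in each library, with triptolide left of untreated. Beside the points, horizontal ticks mark the group means and vertical bars the SD. For KRT18 the triptolide libraries lie at 28.8 to 35.2 and the untreated libraries at 45.5 to 46.5.

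KRT8 accordingly made up a larger share of the keratin counts with triptolide, at 66.7%, 63.6% and 64.9%, against 58.2%, 58.8% and 58.5% in untreated libraries. KRT18 made up 19.2%, 22.4% and 20.6% with triptolide and 26.5%, 26.8% and 27.2% in untreated libraries. These shares describe read counts, and protein was not measured.

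Neighbouring and copied sequence touched several members. KRT8 and KRT18 share 525 exon bases on opposite strands in the annotation, which is 7.6% of the exon bases of KRT8 and 16.3% of those of KRT18. The labels do not say that counting used strand, so reads from that stretch cannot be assigned with certainty to one of the pair. KRT7 shares 7.7% of its exon bases with genes on the opposite strand, and KRT10 shares 2.6%.

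The 25 rows of KRT8 processed copies together held 1.85% of the KRT8 count with triptolide and 1.36% in untreated cells. KRT8P12 had 17.3, 15.2 and 15.7 CPM with triptolide and 14, 13.7 and 16.5 CPM in untreated cells, and did not pass the test (edgeR adjusted p = 0.667). KRT8P14 rose, with 3.9, 2.23 and 4.43 CPM with triptolide and 1.74, 1.66 and 1.16 CPM in untreated cells, 2.31-fold higher with an edgeR adjusted p of 0.0197. That call was lost without triptolide replicate 1 (edgeR adjusted p = 0.0555), triptolide replicate 3 (0.0866) or untreated replicate 3 (0.0695). Reads of KRT8 and its copies may be split by the counting, so values of the copies are uncertain. Adding each family's copies to KRT8 and KRT18 left the log2 difference of their ratio at -0.53. KRT86 had 3, 2 and 6 counts with triptolide and 3, 4 and 9 counts in untreated cells, so its own row was near 0 where KRT81 had over 10 CPM.

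Among other keratins, KRT15 and KRT16 fell. Over all tested genes 10.0% rose and 5.82% fell. Of 24 further type I keratins listed, 3 were tested, 0 rose and 2 fell, and of 21 further type II keratins, 0 passed the low-count filter. The more abundant of those type II genes were KRT86, described above, and KRT6A, at 0.0699 ± 0.0486 CPM with triptolide and 0.0374 ± 0.0648 CPM in untreated cells (SD, n = 3 each). KRT15, a keratin of basal cells, had 17.5, 13.9 and 13.9 CPM with triptolide and 21.7, 20.8 and 27.3 CPM in untreated cells, 1.54-fold lower (edgeR adjusted p = 0.0384). KRT16, an injury keratin of the epidermis, had 1.26, 0.744 and 1.12 CPM with triptolide and 1.96, 2.11 and 2.2 CPM in untreated cells, 2.03-fold lower (edgeR adjusted p = 0.0298). Neither gene's groups overlapped. The KRT15 call was lost with the replicate number as a block (edgeR adjusted p = 0.0649), and without triptolide replicate 2 (0.0939), triptolide replicate 3 (0.143), untreated replicate 1 (0.0726), untreated replicate 2 (0.0763) or untreated replicate 3 (0.0961). The KRT16 call was lost without triptolide replicate 2 (edgeR adjusted p = 0.0895), triptolide replicate 3 (0.0745), untreated replicate 1 (0.0631), untreated replicate 2 (0.0901) or untreated replicate 3 (0.0685). KRT23, named after its values were seen, had 5, 8 and 12 counts in triptolide libraries and 0 in each untreated library. It was below the filter. In the edgeR fit with no low-count filter its adjusted p was 0.000132, where 5.92% of 35716 genes rose. KRT23 was picked by these same values, so its rise is a description.

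Of 15 other intermediate filament genes listed, 7 were tested, 1 rose and 1 fell, where 10.0% of all tested genes rose and 5.82% fell. Vimentin (VIM), the filament of mesenchymal cells, fell to 1075, 1729 and 1271 CPM in triptolide libraries, against 1813, 2111 and 2855 CPM in untreated libraries. VIM was 1.66-fold lower (edgeR adjusted p = 0.042) without overlap between the groups. The VIM call was lost without triptolide replicate 1 (edgeR adjusted p = 0.104), triptolide replicate 3 (0.117), untreated replicate 2 (0.08) or untreated replicate 3 (0.12). Synemin (SYNM), which links other filaments, rose 2.13-fold, with 39.3 ± 5.84 CPM with triptolide and 18.5 ± 1.34 CPM in untreated cells (SD, n = 3 each; edgeR adjusted p = 0.00177).

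The desmosome and hemidesmosome genes that anchor keratin filaments for the most part did not pass the test. Of 23 listed, 16 were tested, 0 rose and 1 fell, with a median log2 fold change of 0.01. Over all tested genes 10.0% rose and 5.82% fell. The member that fell was plakophilin 2 (PKP2), at 1.96 ± 0.375 CPM with triptolide and 3.8 ± 0.439 CPM in untreated cells (SD, n = 3 each; edgeR adjusted p = 0.0199). The PKP2 call was lost without triptolide replicate 2 (edgeR adjusted p = 0.0628), untreated replicate 1 (0.0695) or untreated replicate 2 (0.0702). Of 25 genes of epithelial identity, 10 were tested, 3 rose and 0 fell, beside the same shares of all tested genes. Claudin 4 (CLDN4), a tight junction protein, rose 2.22-fold to 149 ± 54.4 CPM with triptolide, against 67.1 ± 7.15 CPM in untreated cells (SD, n = 3 each; edgeR adjusted p = 0.00607). The others were the protease inhibitor SPINT1, 4.32-fold higher, and P-cadherin (CDH3), 3.44-fold higher, both under 3 CPM in every library. These 3 genes moved in the opposite direction to KRT18, but the other 7 tested were not called. The median log2 fold change of the 10 tested was 0.04. SPINT1 and CDH3 reached the low-count filter only through triptolide libraries, so their rise is a description.

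Of 26 transcription factors and receptors known to act on keratin genes, 24 were tested, 6 rose and 2 fell. Over all tested genes 10.0% rose and 5.82% fell. FOS, a subunit of AP-1, was 3.01-fold higher at 11.2 ± 2.28 CPM with triptolide, against 3.69 ± 1.18 CPM in untreated cells (SD, n = 3 each; edgeR adjusted p = 0.00169). JUNB, another AP-1 subunit, was 1.84-fold higher (edgeR adjusted p = 0.0079). CEBPA was 2.04-fold higher (edgeR adjusted p = 0.0107), a call lost without untreated replicate 2 (0.0582). NR3C1, the glucocorticoid receptor, was 1.83-fold lower (edgeR adjusted p = 0.015), a call lost without untreated replicate 1 (0.055) or untreated replicate 2 (0.0545). AHR, the aryl hydrocarbon receptor, was 1.96-fold lower (edgeR adjusted p = 0.0283), a call lost without triptolide replicate 1 (0.0535), triptolide replicate 3 (0.0738), untreated replicate 1 (0.0679), untreated replicate 2 (0.0862) or untreated replicate 3 (0.0542).

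Among marker lists of other cell types, the trophoblast list rose and the fibroblast list was mixed. All 10 trophoblast markers were tested and all 10 rose, summing to between 510 and 864 CPM in triptolide libraries, against between 9.25 and 10.2 CPM in untreated libraries. Over all tested genes 10.0% rose. CGA, PSG1, PSG3, CYP19A1, HSD3B1, ERVW-1 and PAGE4, singled out by their untreated counts, reached the low-count filter only through triptolide libraries. Such genes could be tested only because triptolide was higher, so the count of 10 that rose is a description. The placental lactogen gene CSH1 stood at 430 ± 175 CPM with triptolide and 4.92 ± 0.135 CPM in untreated cells (SD, n = 3 each; edgeR adjusted p = 4.55e-07), and the related CSH2 was 70.3-fold and the pregnancy glycoprotein gene PSG1 37.8-fold higher. HSD3B1 and PAGE4, named after their values were seen, had 0 counts in every untreated library. Trophoblast is a simple epithelium that makes KRT7, KRT8, KRT18 and KRT19. Any link between the trophoblast markers and the keratin values was not tested. Of 9 fibroblast markers, 6 were tested, 0 rose and 2 fell, where 10.0% of all tested genes rose and 5.82% fell. The fibroblast list summed to between 306 and 419 CPM with triptolide and between 405 and 480.4 CPM in untreated cells. COL1A1 was 21.7-fold lower with triptolide, and POSTN had 3 counts in all with triptolide and 441 in untreated cells. POSTN reached the low-count filter only through untreated libraries, so its fall is a description. The other 4 tested fibroblast markers were not called. COL1A2, named after its values were seen, was the most abundant of the list. It stood at 329 ± 54.5 CPM with triptolide and 323 ± 30.8 CPM in untreated cells (SD, n = 3 each).

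The few tested markers of stratified epithelium and duct did not pass the test. Of 8 squamous keratinocyte markers, 3 were tested, 0 rose and 0 fell, where 10.0% of all tested genes rose and 5.82% fell. TP63 stood at 96.3 ± 12.2 CPM with triptolide and 102 ± 26.2 CPM in untreated cells, and COL17A1 at 228 ± 8.03 CPM with triptolide and 217 ± 16.1 CPM in untreated cells (SD, n = 3 each). Of 6 duct markers, 2 were tested, 0 rose and 0 fell, beside the same shares of all tested genes. With so few genes tested, the lack of calls says little about either list. SOX9 stood at 84.7 ± 20.1 CPM with triptolide and 77.7 ± 11.9 CPM in untreated cells, and MUC1 at 9.63 ± 1.47 CPM with triptolide and 11.2 ± 1.71 CPM in untreated cells (SD, n = 3 each). EPCAM had 3 counts over the triptolide libraries and 4 over the untreated ones, and CDH1 had 16 with triptolide and 5 in untreated cells, so these epithelial markers, picked out after their values were seen, were near 0 beside abundant KRT8 and KRT18. Of 5 acinar and islet markers, 0 passed the filter. Of 5 blood markers, 3 haemoglobin genes (HBA1, HBA2 and HBB) were tested and all 3 rose, where 10.0% of all tested genes rose. The list summed to between 7.96 and 18.3 CPM with triptolide and between 0.826 and 2.19 CPM in untreated cells. HBA1, HBA2 and HBB reached the low-count filter only through triptolide libraries, so their rise is a description too.

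Genes whose profile over the 6 libraries lay nearest to a keratin were found by the root mean square distance between log2 CPM values centred on their mean, among 10288 genes. Nearest to KRT8 were SLX9 (distance 0.033), TMEM147 (0.035), ZNF48 (0.037), ZFAND2A (0.039) and the pseudogene GAPDHP1 (0.041). Nearest to KRT18 were DUS2 (0.048), PROCR (0.062), TRIM47 (0.072), MRPL27 (0.073) and SNRNP35 (0.078). KRT19 ranked 75 from KRT18 (0.141), while KRT8 ranked 1115 from KRT18 and KRT18 ranked 3687 from KRT8 (0.277). By this measure the partner chains of the simple epithelial filament were not near neighbours. The measure follows the treatment difference and the libraries' shared scaling alike, so it repeats the unlike fold changes given above. Within untreated libraries KRT18 stayed at 45.5, 45.6 and 46.5 counts per 100 KRT8 counts.

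**Figure D4:**
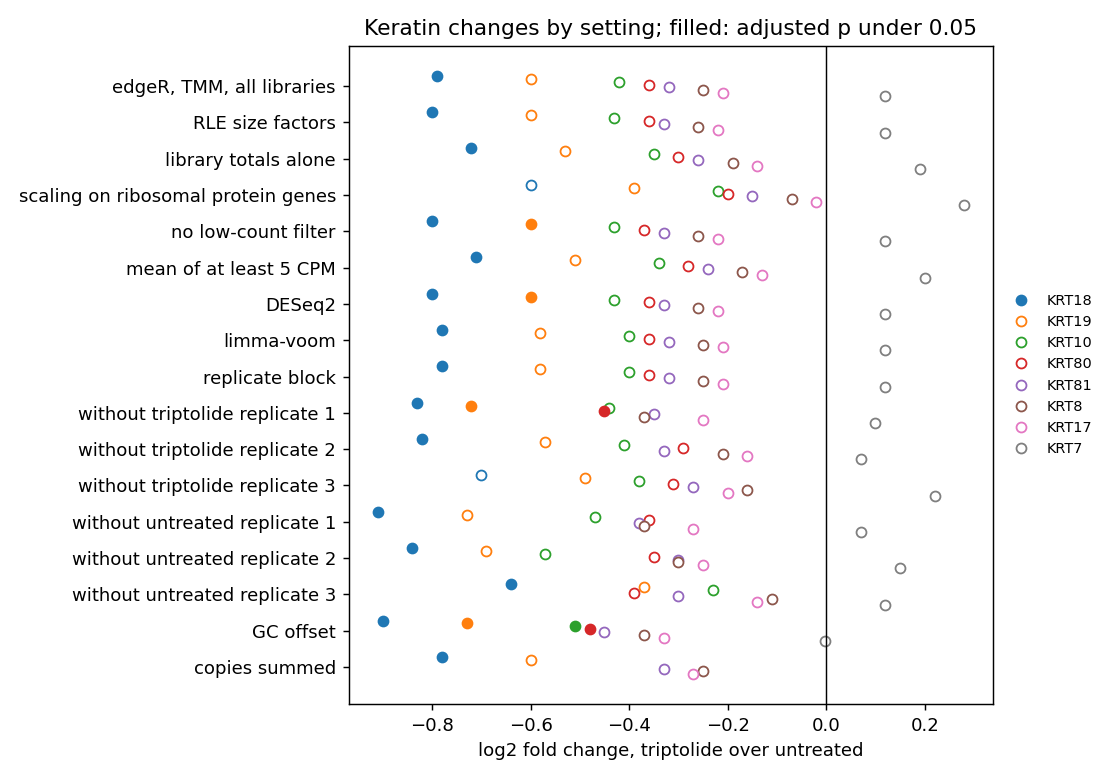
Log2 fold change of the tested keratins, triptolide over untreated, under each processing setting, with filled points where the adjusted p was under 0.05. KRT18 is filled in all settings except ribosomal protein scaling and leaving out triptolide replicate 3.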

How the data were processed

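RNA of 6 libraries was sequenced as paired reads of 150 bp, per the labels' protocols, and processed with HISAT2 and featureCounts, per the submitters' processing notes. The sources used here give no version, genome build, strand setting or handling of multiply mapped reads. The authors deposited raw counts per Ensembl gene ID, of which 35639 of 35716 matched a name. From these counts CPM, folds and tests were computed with edgeR 4.0.16 in R 4.3.3 (TMM, filterByExpr, quasi-likelihood test, Benjamini-Hochberg adjustment over 15202 genes, group as the only term), tested on simulated data. Lengths, overlaps and sequence identities came from GENCODE 29, which may not be the authors' annotation. The keratins and the 13 gene lists were chosen with earlier results of these data known; 1 list and the keratin sequences are not reported here. The rule for naming genes took every keratin and from each list at most 3 called genes in either direction by adjusted p, and 2 by abundance in lists with no call. Alternatives were other scalings, filters, DESeq2 1.42.0, limma-voom (limma 3.58.1), a replicate block, leaving out each library, summed copies and, added after seeing the data, a GC offset, another gene length and the ratios to KRT8.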

Additional observations from a re-analysis of the deposited data

How the results depend on the processing

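Of the 8 keratins followed and tested, 1 fell in the fit reported (with 5.82% of all genes), 0 with ribosomal protein scaling (0.842%), 2 with no low-count filter (3.32% of 35716 genes; KRT18, and KRT19 at an edgeR adjusted p of 0.0162), 2 by DESeq2 (7.39%) and 4 with a GC offset (12.3%). When each library was left out, 0 to 3 fell, with 0 without triptolide replicate 3 (2.96%) and 3 without triptolide replicate 1 (6.58%). With the GC offset, chosen after seeing the data, KRT19 (adjusted p = 0.00708), KRT80 (0.00749) and KRT10 (0.0472) passed beside KRT18, while 1873 of all genes fell, and the cause was not tested. None of these 8 rose under any alternative run. The share of all genes that rose ran from 5.68% (minimum mean of 5 CPM) to 13.7% (GC offset). KRT7 changed sign with the GC offset (log2 fold change -0.0017), as did COL17A1 (-0.04) and TP63 (0.06). TP63 also changed sign with ribosomal protein scaling (0.05) and ran from -0.29 to 0.02 when libraries were left out, and SOX9 from -0.06 to 0.27. Over all genes, 584 rose and 336 fell with a minimum mean of 5 CPM, which tested fewer genes, and 128 fell with ribosomal protein scaling. Leaving out each library gave 953 to 1580 genes that rose, the lowest without untreated replicate 2, and 407 to 1034 that fell. Under ribosomal protein scaling the calls of KRT15 (adjusted p = 0.365), KRT16 (0.2), VIM (0.155), PKP2 (0.208), NR3C1 (0.248), AHR (0.209) and KRT8P14 (0.0514) were lost. With library totals alone KRT15 (0.0522) and VIM (0.0557) were lost, and with the minimum of 5 CPM KRT15 (0.0855) and VIM (0.0905).

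With the replicate number as a block, 1523 genes rose and 856 fell, 1 keratin fell, and KRT18 had a log2 fold change of -0.78 (edgeR adjusted p = 0.0135). Same-numbered libraries of the 2 groups had correlated deviations of 0.029, -0.041 and -0.439, so the numbers were not taken to pair them. No library correlated best with its own number.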
